A study of Mus musculus with 9 samples.

Results

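This section describes 35 genes that mark cells other than endothelium, followed through 9 RNA-seq libraries of sorted meningeal lymphatic endothelial cells (MLECs). It gives the level of the markers of each lineage library by library. The genes were taken by their symbols from the 24321 rows of the expression table, and all 35 were found. They mark myeloid cells and leukocytes in general (10 genes), T cells (1), B cells (1), neutrophils (2), mural cells, which are the pericytes and smooth muscle cells that wrap vessels (8), fibroblasts (3), glia (4), neurons (1), melanocytes (4) and red cells (1). The libraries came from the dorsal meninges of male C57BL/6 mice aged 10 weeks and formed 3 groups of 3: Control mice were injected with PBS, GL261 mice with cells of the GL261 mouse glioma line and collected about 3 weeks later, and B16 mice with cells of the B16 mouse melanoma line and collected about 2 weeks later. The sample labels place the injection in the cisterna magna and the methods describe it as subdural. No group carried a transgene. Each library was made from 10 sorted cells of a pool of 6 mice, so it samples few cells of the tissue. The staining mix held antibodies to CD31, CD45 and LYVE-1, while the results text of the study describes a gate on CD45-, CD31+ and PDPN+ cells.

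Lymphatic endothelial cells line the vessels that carry fluid and leukocytes out of the meninges. In the same tissue lie border-associated macrophages, other leukocytes, the mural cells of neighbouring blood vessels, fibroblasts of the meningeal layers and, below the pia, glia and neurons. Macrophages take up material along these vessels and some bear LYVE-1 themselves, and mural cells adhere tightly to endothelium, so that a sort can carry either along. A few of the genes described here are known in more than 1 lineage, and some of these are named where they appear.

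The values are FPKM as deposited, that is, fragments per kilobase of transcript scaled to the mapped fragments of the library. Control libraries had 7303 to 8688 genes above 0 FPKM and tumor-associated ones 8736 to 10852, and the sums of FPKM were 652640 to 693120 against 701950 to 888310. By the sequencing summary of the study, the control libraries also had the fewest aligned reads of the 9, so depth and tumor status cannot be told apart. Tbp, a general transcription factor of every cell, was listed at 0 in control replicates 1 and 3, so a value of 0 here may be a missed transcript, and a gene is described below only as listed at 0. All 9 reference endothelial genes were above 1 FPKM in all 9 libraries, but not at one level: Pecam1, which encodes CD31, had 150 to 293 FPKM in control and 309 to 468 after tumor injection (limma's adjusted p = 0.222). Esam, an endothelial adhesion protein, had 1.89, 34.1 and 3.57 FPKM in control and 335 to 748 after tumor injection (limma's adjusted p = 0.00017). Eng, the co-receptor endoglin, had 176 to 355 against 388 to 792 (limma's adjusted p = 0.0197). Esam and Eng were the 2 of 9 called higher, and none was called lower. Cdh5, which encodes VE-cadherin, had 37.9 to 94.0 FPKM over all libraries and the lymphatic gene Lyve1 628 to 1895. The sum of Pecam1 and Cdh5, used below as a denominator, was thus itself lower in control. Prox1, the transcription factor of lymphatic identity, had 20.9, 33.7 and 42.2 FPKM in control and 1.87 to 16.5 after tumor injection (limma's adjusted p = 0.0509). The groups did not overlap for Prox1, and its difference did not pass the threshold of 0.05. Of 10 reference lymphatic genes, 9 were tested, and 5 of these were lower in the tumor-associated libraries past the threshold (Thy1, Flt4, Ccl21c, Mmrn1 and Reln) and none was higher, against 1.02% and 2.9% of all genes tested, so the endothelial background that the markers are read against itself differed between the groups.

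By summed FPKM, 2 libraries stood apart in these genes: control replicate 1 in mural genes and GL261 replicate 2 in myeloid genes. Their values are given below, and the counts of members called are also given without both libraries. Both stood out over several genes of 1 lineage that lie on different chromosomes. Set against Pecam1 and Cdh5, the myeloid sum was highest in control replicate 3, at 240% against 213% in GL261 replicate 2. Without the member Fcer1g it was highest in GL261 replicate 2 on that scale, at 202%. Promoter sequences are shown for Acta2, C1qb and C1qc, whose promoters were available. Tagln, Lyz2 and C1qa reached higher FPKM and are not shown. Motifs were searched because serum response factor acts on the CArG box in smooth muscle promoters. PU.1, the myeloid transcription factor, binds purine-rich sites with the core GAGGAA. The first sequence is the promoter of Acta2 (GRCm38.p6, minus strand, chr19:34255324-34255623). Of its windows nearest to a CArG box, only the first is in capitals. The other sequences are the promoters of C1qb (minus strand, chr4:136886151-136886450) and C1qc (minus strand, chr4:136892865-136893164), with GAGGAA or its reverse complement TTCCTC in capitals. Each window holds 250 bases before and 50 after the start in RefSeq, written 5′ to 3′ on the strand of the gene.
Acta2: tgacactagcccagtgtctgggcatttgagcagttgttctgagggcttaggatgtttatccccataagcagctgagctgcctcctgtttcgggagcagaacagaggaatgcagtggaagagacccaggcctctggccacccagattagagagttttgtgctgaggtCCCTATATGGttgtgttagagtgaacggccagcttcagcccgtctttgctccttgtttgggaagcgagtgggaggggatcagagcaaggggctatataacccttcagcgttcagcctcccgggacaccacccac
C1qb: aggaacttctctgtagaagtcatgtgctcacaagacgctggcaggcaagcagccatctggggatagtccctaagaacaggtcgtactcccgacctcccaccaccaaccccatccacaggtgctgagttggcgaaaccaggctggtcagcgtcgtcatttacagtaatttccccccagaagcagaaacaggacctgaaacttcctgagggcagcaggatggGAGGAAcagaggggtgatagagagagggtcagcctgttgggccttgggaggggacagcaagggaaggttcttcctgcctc
C1qc: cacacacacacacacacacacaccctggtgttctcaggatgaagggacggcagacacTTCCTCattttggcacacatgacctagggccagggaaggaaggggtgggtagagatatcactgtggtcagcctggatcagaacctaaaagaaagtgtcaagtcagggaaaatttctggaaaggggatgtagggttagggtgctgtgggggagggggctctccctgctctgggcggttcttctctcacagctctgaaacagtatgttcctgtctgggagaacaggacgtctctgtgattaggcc
The window in capitals in Acta2, CCCTATATGG at positions -84 to -75 from the start, differs from the CArG consensus by 1 base. A later window left in lower case, ccttgtttgg, also differs by 1 base. A window with at most 1 mismatch occurred in 21.1% of 32851 promoters of the same length and one without a mismatch in 1.63%. GAGGAA, searched on both strands, began at position -30 in C1qb and occupied -193 to -188 on the reverse strand in C1qc, and 28.3% of all promoters held it. The Acta2 window also holds it, at -148 to -143, so it does not separate these promoters by lineage. These matches describe letters and were not tested as binding sites. Spi1, which encodes PU.1, was listed at 0 in GL261 replicate 2 and in every B16 library. It had 31.7 FPKM in control replicate 3, 13.3 in GL261 replicate 3 and 0.123 in GL261 replicate 1. Promoters of 23 of the 35 genes were in the sequence table.

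**Figure D1:**
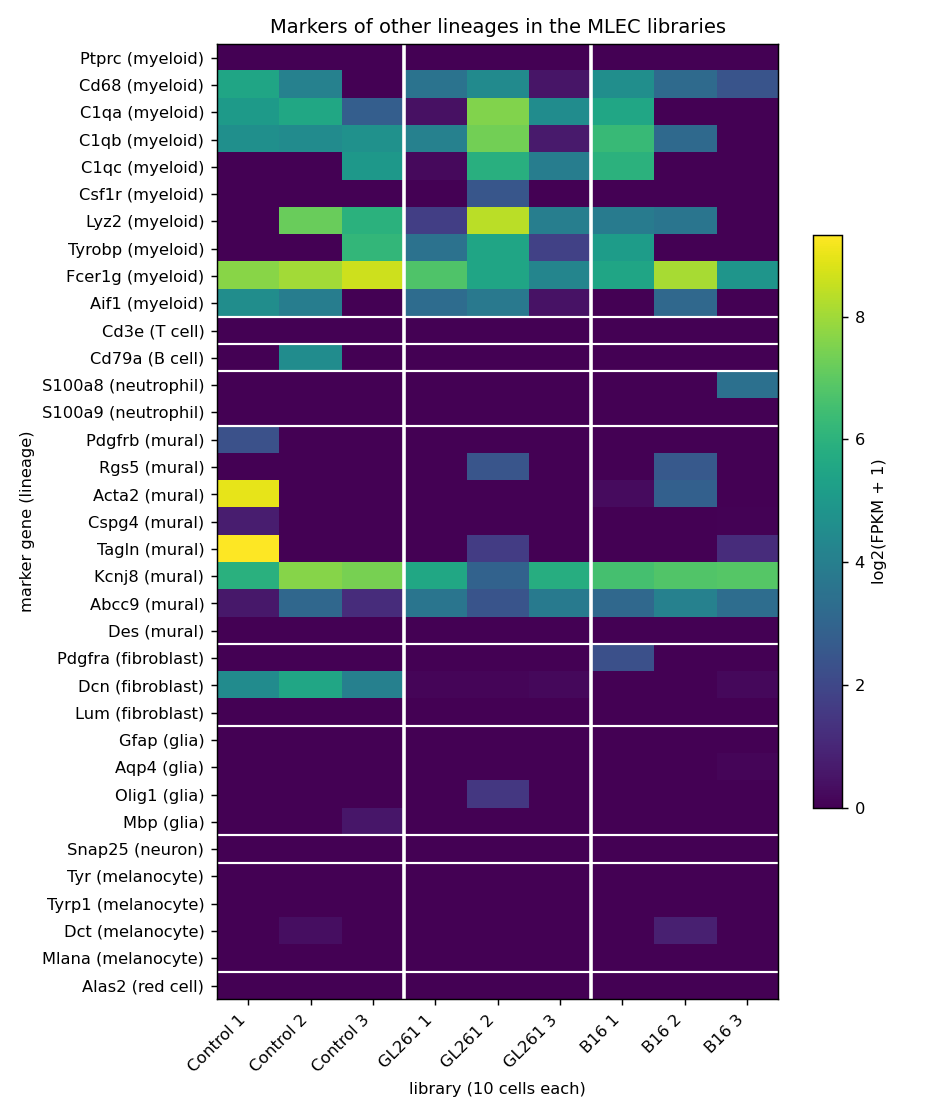
Level of each of the 35 markers (rows, grouped by lineage) in each of the 9 libraries (columns, 3 per group), as log2(FPKM + 1). The bright cells of Acta2 and Tagln stand in Control 1 alone, C1qa, C1qb and Lyz2 are brightest in GL261 2, and most glial, neuronal, melanocyte and red cell rows are dark throughout.

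Of the 35 markers, 11 were listed at 0 in all 9 libraries, or 31.4%, against 44.3% of all genes in the table. They were Ptprc (CD45, the leukocyte surface protein that the sort gated against), Cd3e (a chain of the T cell receptor complex), S100a9 (a neutrophil calcium-binding protein), Des (the intermediate filament desmin of muscle and pericytes), Lum (the fibroblast proteoglycan lumican), Gfap (the astrocyte filament), Snap25 (a synaptic protein of neurons), Tyr, Tyrp1 and Mlana (pigment cell proteins) and Alas2 (heme synthesis in red cells). In bulk libraries of this kind, a marker held by few cells at a high level and one held by many cells at a low level cannot be told apart. At the other end, 3 markers were above 0 in all 9 libraries: Fcer1g, Kcnj8 and Abcc9. The remaining 21 were above 0 in some libraries only.

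The myeloid genes were the most widely detected. Their 10 members summed to 324, 504 and 583 FPKM in control replicates 1, 2 and 3, to 157, 857 and 73.4 in GL261 replicates 1, 2 and 3, and to 300, 308 and 32.8 in B16 replicates 1, 2 and 3. Set against Pecam1 and Cdh5 of the same library, these sums came to 98.0%, 139% and 240% in control, 32.9%, 213% and 19.2% in GL261, and 67.2%, 61.6% and 5.84% in B16. All B16 sums were below all control sums on both scales, as a description with no test of a sum over members, while the GL261 libraries overlapped both groups. Without Fcer1g, described below, the B16 and control sums overlapped. GL261 replicate 2 alone held 27.3% of the myeloid FPKM of all 9 libraries.

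**Figure D2:**
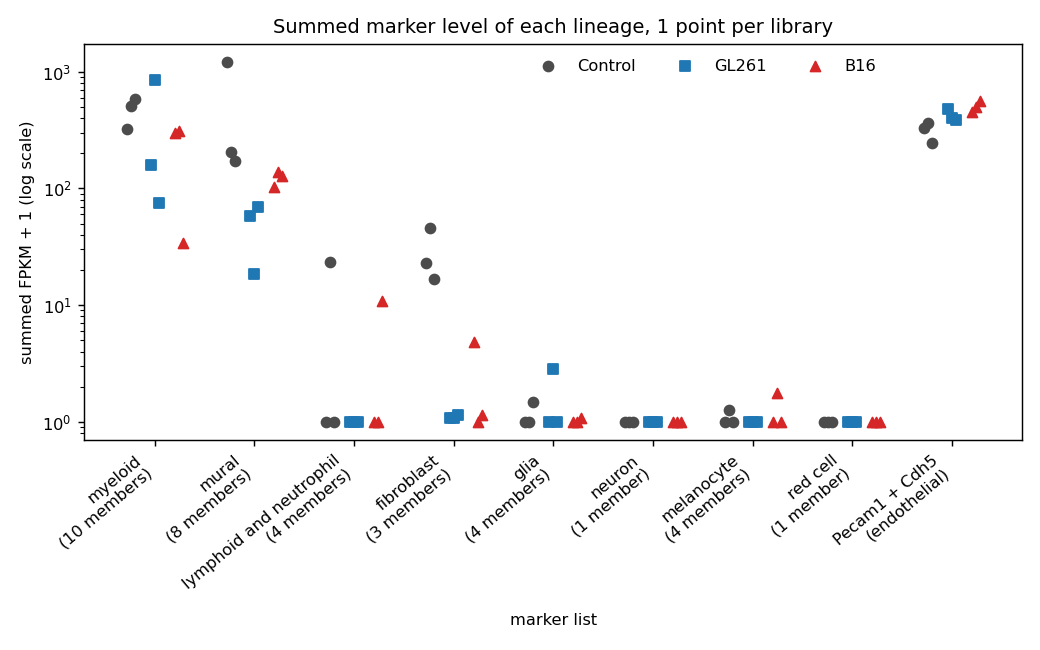
Summed FPKM of the markers of each lineage (x axis) in each library, on a log scale after adding 1, with Pecam1 plus Cdh5 as the endothelial reference on the right; each point is 1 library. Myeloid sums range from 32.8 to 857, with the B16 points (at most 308) below the control points (at least 324) and the GL261 points on either side, the mural sum of 1211 is that of control replicate 1, and glial, neuronal, melanocyte and red cell sums stay under 2 FPKM.

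The C1q genes encode the 3 chains of complement C1q, which tissue macrophages and microglia make in quantity. They are neighbours on chromosome 4 and together span 18.7 kb (mm9; C1qb 136436044 to 136442102, C1qc 136445719 to 136448980, C1qa 136451832 to 136454718, all on the minus strand). C1qa had 33.1, 46.2 and 5.88 FPKM in control, 0.323, 186 and 22.4 in GL261, and 44.7, 0 and 0 in B16 (replicates 1, 2 and 3 in this order here and below). C1qb had 24.2, 21.4 and 25.1 in control, 16.1, 163 and 0.576 in GL261, and 77.3, 8.09 and 0 in B16. C1qc had 0, 0 and 30.4 in control, 0.167, 57.8 and 14.5 in GL261, and 62.4, 0 and 0 in B16. All 3 chains were above 10 FPKM in GL261 replicate 2 and B16 replicate 1, all were listed at 0 in B16 replicate 3, and the control libraries lacked C1qc in 2 of 3 cases while they held the other chains.

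Lyz2, the lysozyme of macrophages and neutrophils, had 0, 145 and 60.6 FPKM in control, 2.33, 324 and 14.8 in GL261, and 13.8, 11.4 and 0 in B16. Tyrobp, which encodes the adaptor DAP12 of activating myeloid receptors, had 0, 0 and 71.2 in control, 10.5, 43.5 and 2.49 in GL261, and 34.7, 0 and 0 in B16. Cd68, a lysosomal glycoprotein of macrophages, had 43.2, 16.1 and 0 in control, 10.6, 20.9 and 0.428 in GL261, and 23.7, 8.38 and 4.38 in B16. Aif1, the actin-binding protein IBA1 of macrophages and microglia, had 22.7, 14.4 and 0 in control, 8.94, 12.7 and 0.382 in GL261, and 0, 7.97 and 0 in B16. For each of these genes the 3 groups overlapped, and no library of the control group held all of them. Control replicate 1 had Cd68 and Aif1 without Lyz2 or Tyrobp, and control replicate 3 had Lyz2 and Tyrobp without Cd68 or Aif1. Csf1r, the receptor that macrophages need to survive, had 4.61 FPKM in GL261 replicate 2 and was listed at 0 in the other 8 libraries. GL261 replicate 2 was therefore the library with the most myeloid members at 1 FPKM or more, 9 of 10, with Ptprc the exception, and B16 replicate 3 had the fewest, 2 of 10.

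**Figure D3:**
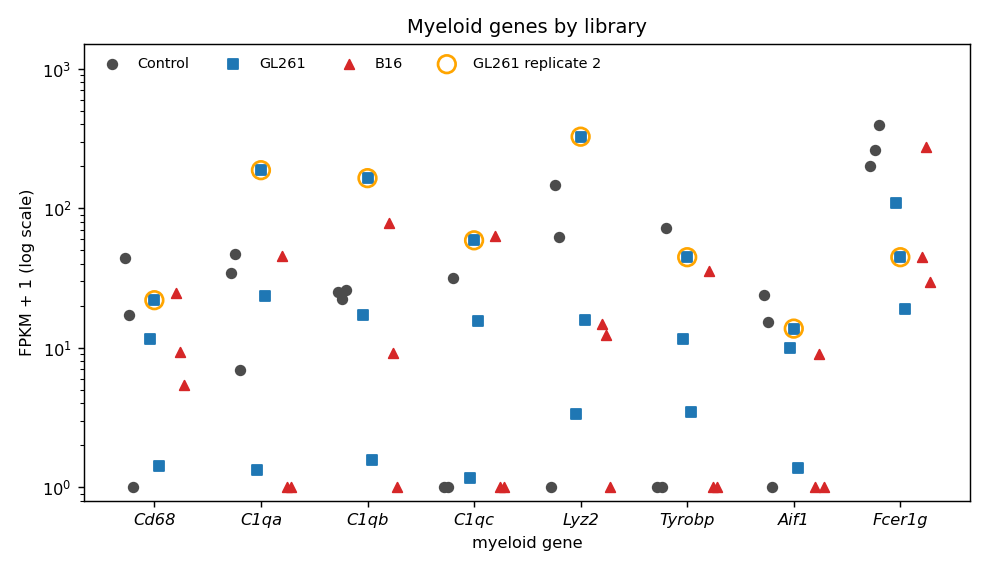
Level of 8 myeloid genes in each library on a log scale after adding 1 to the FPKM; GL261 replicate 2 is ringed. The ringed library is highest for C1qa (186), C1qb (163) and Lyz2 (324), but not for Cd68, Tyrobp, Aif1 or Fcer1g, for which a control library is highest.

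Fcer1g, which encodes the signalling gamma chain shared by Fc receptors, had 201, 261 and 390 FPKM in control, 108, 43.5 and 17.8 in GL261, and 43.4, 272 and 28.4 in B16. It was above 0 in all 9 libraries and made up most of the myeloid sum in control replicates 1, 2 and 3, GL261 replicate 1 and B16 replicates 2 and 3. Without it, the other 9 myeloid members summed to 123, 243 and 193 FPKM in control, 48.9, 813 and 55.6 in GL261, and 257, 35.8 and 4.38 in B16, and GL261 replicate 2 then held 45.8% of the total. In GL261 replicate 2, in which C1qa and C1qb were highest, Fcer1g stood at 43.5, below each control library. All GL261 libraries were below all control libraries for Fcer1g, while B16 replicate 2 lay within the control range.

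The lymphoid and neutrophil members gave 2 isolated values. Cd79a, a chain of the B cell receptor, had 22.4 FPKM in control replicate 2 and was listed at 0 in the other 8 libraries, and the further B cell genes Cd79b, Ms4a1 and Cd22 were listed at 0 throughout. S100a8, a partner of S100a9 in neutrophils, had 9.78 FPKM in B16 replicate 3 alone, where S100a9 was listed at 0. Of 6 further neutrophil genes in the table, only Csf3r was above 0, with 0.155 FPKM in control replicate 2.

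Among the mural genes, 2 patterns appeared, and they involved different genes. Tagln, the smooth muscle protein SM22 (mm9 chromosome 9, 45737711 to 45744141, minus strand), had 641 FPKM in control replicate 1, 2.15 in GL261 replicate 2 and 1.30 in B16 replicate 3, and was listed at 0 in the other 6. Acta2, smooth muscle actin (mm9 chromosome 19, 34315580 to 34329826, minus strand), had 505 FPKM in control replicate 1, 0.209 in B16 replicate 1 and 6.34 in B16 replicate 2, and was listed at 0 elsewhere. Pdgfrb, the growth factor receptor of pericytes, had 3.96 FPKM in control replicate 1 and was listed at 0 in the other 8 libraries. Cspg4, the pericyte proteoglycan NG2, had 0.693 FPKM there and 0.0277 in B16 replicate 3. Rgs5, a G protein regulator of pericytes, was listed at 0 in control replicate 1 and had 4.54 in GL261 replicate 2 and 5.05 in B16 replicate 2. The smooth muscle genes were thus high in 1 library of 9. With Kcnj8 and Abcc9 set aside, a split made after their values were seen, the other 6 mural members summed to 1151 FPKM in control replicate 1, to 0 in control replicates 2 and 3, and to at most 11.4 in any tumor-associated library.

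Of 12 further mural genes in the list, 5 were highest in control replicate 1 (Myl9, Myh11, Mylk, Higd1b and Notch3), 5 were listed at 0 in all 9, and 2 had another pattern. Myl9, a myosin light chain of smooth muscle, had 1261 FPKM in control replicate 1, 33.7 in B16 replicate 3, 13.5 in GL261 replicate 2, 5.80 in GL261 replicate 1 and 0 elsewhere. Myh11, the smooth muscle myosin heavy chain, had 57.2 FPKM there and at most 0.0813 in any other library. Mylk, the kinase that phosphorylates myosin light chain, had 21.2 there and 1.15 to 7.64 in the others, Higd1b had 37.2 and Notch3, a receptor of mural cells, 1.80 there, and both were listed at 0 elsewhere. A search of all genes for 50 FPKM or more in 1 library and less than 10 in the other 8, a rule set after these values were seen, found 7 genes for control replicate 1, with Tagln, Acta2 and the muscle tropomyosin Tpm2 (286 FPKM, and at most 0.423 elsewhere) as the highest, and 0 to 4 genes for each of the other 8 libraries. Cnn1 and Lmod1, which also belong to smooth muscle, and the pericyte genes Vtn, Ndufa4l2 and Atp13a5 were those listed at 0 in all 9. Anpep, the surface peptidase CD13, was lowest of the control libraries in replicate 1, with 0.76, 3.91 and 10.9 FPKM in control and 0 to 1.5 in the tumor-associated libraries, and Mcam, described further on, was highest in the tumor-associated libraries. Pecam1, at 293 FPKM in control replicate 1, was close to its value of 291 in control replicate 2, and Cdh5 at 37.9 was the lowest of the 9.

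**Figure D4:**
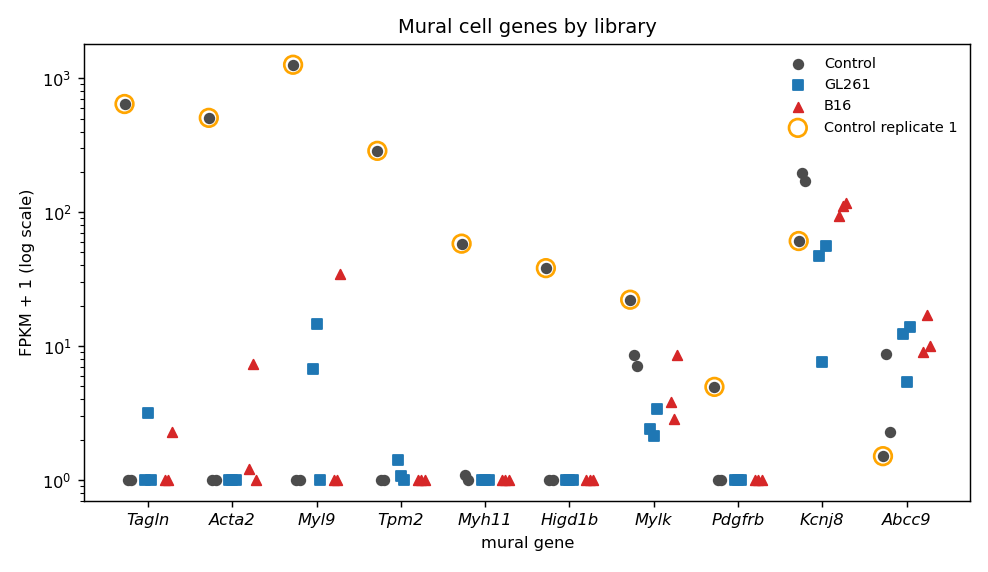
Level of 10 mural genes in each library on a log scale after adding 1 to the FPKM; control replicate 1 is ringed. The ringed point is the highest of 9 for Tagln, Acta2, Myl9, Tpm2, Myh11, Higd1b, Mylk and Pdgfrb, and lies within or below the other points for Kcnj8 (59.9) and Abcc9 (0.507).

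Kcnj8 and Abcc9 did not follow control replicate 1. They encode Kir6.1 and SUR2, the pore and the regulatory subunit of an ATP-sensitive potassium channel used as a marker of brain pericytes. Which cells their signal came from was not tested. They lie 16.5 kb apart on chromosome 6 (mm9, Kcnj8 142513459 to 142519876 and Abcc9 142536382 to 142650794, minus strand). Kcnj8 had 59.9, 195 and 169 FPKM in control, 45.8, 6.56 and 55.1 in GL261, and 93.3, 110 and 116 in B16. The control and B16 ranges overlapped, and each GL261 library was below each library of both other groups. Abcc9 had 0.507, 7.68 and 1.27 FPKM in control, 11.3, 4.35 and 12.9 in GL261, and 7.99, 16.1 and 8.98 in B16. All B16 libraries were above all control libraries for Abcc9, and GL261 replicate 2 was below control replicate 2. Both genes were above 0 in every library, including the 4 (control replicates 2 and 3, GL261 replicates 1 and 3) in which Pdgfrb, Rgs5, Acta2, Cspg4, Tagln and Des were all listed at 0.

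Among the fibroblast members, Dcn, the collagen-binding proteoglycan decorin (mm9 chromosome 10, 96942245 to 96980777, plus strand), had 21.8, 44.9 and 15.7 FPKM in control, 0.0851, 0.0804 and 0.146 in GL261, and 0, 0 and 0.141 in B16. Every control library was above every tumor-associated library. Pdgfra, the growth factor receptor of fibroblasts, had 3.85 FPKM in B16 replicate 1 and was listed at 0 in the other 8, including all control libraries, and Lum was listed at 0 throughout. Of 16 further fibroblast genes, the 3 with the highest mean did not follow Dcn. Ptgds, a prostaglandin synthase of the leptomeninges, had 98.9 FPKM in control replicate 2 and at most 0.867 elsewhere. Foxc1, a transcription factor of meningeal development, had 10.6, 3.59 and 0.219 in control, 17.1, 8.22 and 1.71 in GL261, and 4.54, 5.06 and 0.982 in B16. Crabp2, a retinoic acid carrier, had 26.9 in control replicate 2, 3.23 in B16 replicate 2 and 0 elsewhere. Pi16 had 23.1 FPKM in B16 replicate 1, the library that held the only Pdgfra value, and was listed at 0 in the other 8. Col15a1 reached 7.29 in GL261 replicate 1 and 3.72 in control replicate 3. The collagen genes Col1a1, Col1a2, Col3a1 and Col6a2 were under 3 FPKM in every library, and so was Ogn. Col6a1, Fbln1, Mfap5, Slc6a13, Aldh1a2 and Lama2 were listed at 0 in all 9.

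Glial, neuronal, melanocyte and red cell members were at or near 0. Aqp4, the water channel of astrocytes, had 0.0893 FPKM in B16 replicate 3, Olig1, a transcription factor of oligodendrocytes, 1.86 in GL261 replicate 2, and Mbp, a myelin protein, 0.472 in control replicate 3, and each was listed at 0 in the other 8. The largest glial sum of any library was 1.86 FPKM, or 0.463% of Pecam1 plus Cdh5. Dct, an enzyme of melanin synthesis, had 0.258 FPKM in control replicate 2 and 0.783 in B16 replicate 2, the only values above 0 among 4 melanocyte members. Tyr, Tyrp1 and Mlana, which define pigment cells, were listed at 0 in all 3 B16 libraries. Among 9 further red cell genes, the hemoglobin genes reached 8.37 FPKM (Hba-a1 in B16 replicate 2) and 1.45 (Hbb-bs in GL261 replicate 1), values that are uncertain because near-identical copies share reads, and no control library had any red cell gene above 0.

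Further genes of these lineages were present in more libraries. S100b, a calcium-binding protein of astrocytes, Schwann cells and pigment cells, had 0, 0.739 and 0 FPKM in control, 0, 3.00 and 0 in GL261, and 37.0, 36.5 and 25.3 in B16. It was higher in B16 than in control by 4.80 on the log2 scale (SE 0.84, limma's adjusted p = 0.0135). S100b passed the filter for testing, 1 FPKM in at least 3 libraries, only through the B16 group in which it is high. Its difference between GL261 and B16 did not pass the threshold over all genes (-4.40, SE 0.84, limma's adjusted p = 0.128), although the groups did not overlap. Cnp, a myelin enzyme that other cells also express, was above 0 in 8 libraries with 34.4 FPKM at most. Pmel, a melanosome protein, had 4.07 FPKM in GL261 replicate 2 and was listed at 0 in the other 8, and Gpnmb, which macrophages express as well as pigment cells, had 60.1, 8.02 and 22.9 in control, 6.54, 4.51 and 0 in GL261, and 4.38, 0 and 0 in B16 (limma's adjusted p = 0.0834 for tumor-associated against control). Of the neuronal genes, Stmn2 had 107, 47.5 and 6.43 in control and 0 to 32.0 in the tumor-associated libraries, Tubb3 had 0 in control and at most 25.4 in the others, and Syt1, Nefl, Gad1, Slc17a7 and Syn1 were listed at 0 in all 9.

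In the myeloid list, the 3 further genes with the highest mean were Cd14, Ctss and Pf4. Ctss, a lysosomal protease of macrophages and microglia, had 286 FPKM in GL261 replicate 2, from 10.9 to 17.5 in control replicate 2, GL261 replicates 1 and 3 and B16 replicate 1, and 0 in the other 4. Cd14, the endotoxin co-receptor, was above 0 in all 9 libraries, with 46.0, 27.3 and 4.64 in control, 95.3, 18.6 and 182 in GL261, and 183, 17.1 and 30.7 in B16. Pf4, a chemokine of platelets and macrophages, had 0 in each control library, 12.7, 0 and 187 in GL261, and 17.0, 54.2 and 35.9 in B16 (limma's adjusted p = 0.0739). Adgre1, the macrophage marker F4/80, was listed at 0 in all 9, and Itgam, Cx3cr1 and Cd163 did not exceed 0.119 FPKM in any library. Other genes of the list reached higher values. Cd52 had 71.8 in GL261 replicate 2 and 56.8 in control replicate 3. Itgb2 had 71.7 in B16 replicate 3 and 59.6 in control replicate 1. Lst1 reached 57.5 in GL261 replicate 1, Trem2 29.1 in control replicate 3 and Fcgr3 19.7 in GL261 replicate 3. GL261 replicate 2 had 13 of 24 further myeloid genes at 1 FPKM or more, against 4 to 9 in each of the other 8 libraries. By the summed FPKM of these 24 genes, GL261 replicate 3 was highest at 511 and GL261 replicate 2 next at 494.

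2 further myeloid genes passed the test. Lcp1, the leukocyte actin bundler L-plastin, had 0 FPKM in each control library, 35.5, 40.2 and 33.1 in GL261, and 23.6, 19.5 and 34.1 in B16. It was higher in tumor-associated MLECs by 4.96 on the log2 scale (SE 0.57, limma's adjusted p = 0.000385), and it stood at 34.1 FPKM in B16 replicate 3, which had 2 of 10 myeloid members at 1 FPKM or more. Lcp1 passed the filter only through the tumor-associated libraries, in which it is high, and it belongs to the genes that the study itself selected as higher on these libraries, so it is not independent evidence of its direction. Mrc1, the mannose receptor, which both macrophages and lymphatic endothelium carry, had 11.3, 54.3 and 82.2 in control, 1.53, 1.37 and 0.304 in GL261, and 17.0, 6.12 and 10.7 in B16, and was lower in GL261 than in control by a log2 difference of -4.27 (SE 0.87, limma's adjusted p = 0.0216).

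Each library can be read across all lineages. The 35 markers together summed to 1557, 774 and 769 FPKM in control, 214, 876 and 142 in GL261, and 405, 446 and 169 in B16, which was 0.0184% to 0.234% of the FPKM of a library. Members named for a library below had 10 FPKM or more there, unless a lower value is given. Control replicate 1 had the smooth muscle genes, Fcer1g, Kcnj8, Cd68, 2 C1q chains, Aif1 and Dcn. Control replicate 2 had Lyz2, Fcer1g, Kcnj8, Cd68, Aif1, 2 C1q chains and Dcn with isolated Cd79a, Ptgds and Crabp2. Control replicate 3 had Fcer1g, Kcnj8, Tyrobp, Lyz2, C1qb, C1qc and Dcn, with C1qa at 5.88 FPKM and Acta2 and Tagln listed at 0. GL261 replicates 1 and 3 had low sums, 214 and 142 FPKM, with Fcer1g the highest member in the first and Kcnj8 in the second. Each had 6 members at 10 FPKM or more. GL261 replicate 2 had all C1q chains, Lyz2, Tyrobp, Fcer1g, Cd68 and Aif1, with Csf1r at 4.61 FPKM and Kcnj8 at its lowest, 6.56. B16 replicate 1 had Kcnj8 as its highest member at 93.3, with all C1q chains, Fcer1g, Tyrobp, Cd68 and Lyz2. B16 replicate 2 had Fcer1g and Kcnj8 with no other member above 20 FPKM. B16 replicate 3 had Kcnj8 at 116 and Fcer1g at 28.4 as its only members at 10 FPKM or more.

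The tumor-associated and control libraries were then compared gene by gene with limma on log2(FPKM + 1). Only genes with at least 1 FPKM in at least 3 libraries were tested, 9955 in all, and 12 of the 35 members passed this filter. Of these 12, limma called none higher and 1 lower in the joined tumor group, at an adjusted p under 0.05 over all genes tested. Among all genes tested, 2.9% were called higher and 1.02% lower, 3.93% in all. The member called was Dcn, with a log2 difference of -4.60 (SE 0.62, limma's adjusted p = 0.0011), lower in 6 of 6 tumor-associated libraries. All tumor-associated libraries lay below all control libraries for Dcn alone among the 12, and above them for none, while 4.44% and 6.08% of all genes tested lay so. The exact two-sided permutation test over the 84 divisions of the 9 libraries gave p = 0.0119, the smallest it allows. Dcn reached 1 FPKM in the control libraries alone, so it passed the filter only through the group in which it is high, and it is among the genes that the study selected as lower on these same libraries. With aligned reads as a covariate the difference was -4.94 and no longer passed (limma's adjusted p = 0.127). In that fit 0.0904% of all genes tested were called.

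The other 11 tested members did not pass. Fcer1g differed by -2.28 between tumor-associated and control MLECs (SE 0.69, limma's adjusted p = 0.0909; exact permutation p = 0.0714). Without B16 replicate 2, which was the only tumor-associated library in the control range, its difference was -2.73 and passed (limma's adjusted p = 0.0167). That omission takes out the overlap itself, so the pass is not independent support. Fcer1g did not pass when any other single library was left out. Abcc9 differed by 1.77 (SE 0.75, limma's adjusted p = 0.221), with an unadjusted exact permutation p of 0.0238. Kcnj8 differed by -1.23 (SE 0.77, limma's adjusted p = 0.405). For Tagln, whose difference of -2.63 (SE 1.63) rested on control replicate 1, the sign changed to 0.48 when that library was left out, and the spread of the remaining myeloid genes gave SEs of 1.18 to 1.70 on the log2 scale. The median difference of the 12 tested members was -1.03, against 0.20 over all genes tested, and 9 of the 12 were negative. That median covers only the members that passed the filter and was not tested.

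**Figure D5:**
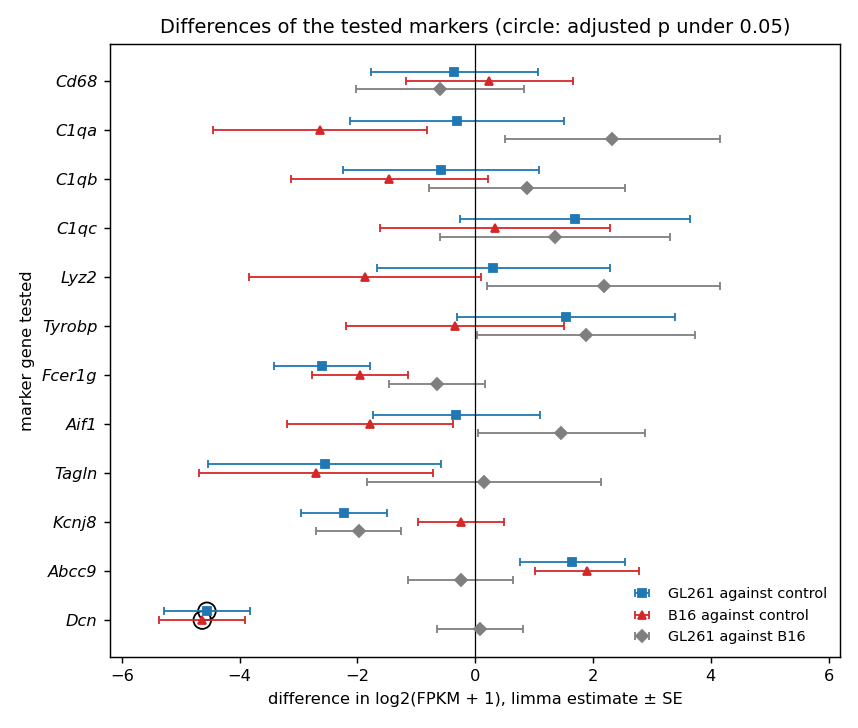
Difference in log2(FPKM + 1) with its standard error, from limma with 3 libraries per group, for the 12 markers that passed the filter on low values; colours give the comparison and black circles mark adjusted p under 0.05. The circles fall on Dcn for GL261 and B16 against control (-4.56 and -4.63), and the bars of Cd68, the C1q genes, Lyz2, Tyrobp, Aif1 and Tagln are the widest.

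Each tumor was also set against the same control libraries, so both comparisons share their controls. In GL261 against control, 1 of 12 tested members was called lower and none higher, against 0.904% and 2.58% of all genes tested (3.49% in all). At an unadjusted p under 0.05 there were 3 members, against 16.9% of all genes. It was Dcn, at -4.56 (SE 0.73, limma's adjusted p = 0.00683). All GL261 libraries were below all control libraries for 3 members, Dcn, Fcer1g and Kcnj8, while 8.84% of all genes tested lay that way, and no member lay wholly above (13.7% of all genes). Fcer1g differed by -2.61 (SE 0.81, limma's adjusted p = 0.116) and Kcnj8 by -2.22 (SE 0.73, limma's adjusted p = 0.133). When control replicate 1 and GL261 replicate 2 were both left out, Dcn differed by -4.63 and no longer passed (limma's adjusted p = 0.0697). In that fit 0.643% of all genes tested were called.

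In B16 against control, Dcn was again the 1 member called lower, at -4.63 (SE 0.73, limma's adjusted p = 0.00803), with 0.502% of all genes called lower and 1.61% higher (2.11% in all). At an unadjusted p under 0.05 there were 2 members, against 15% of all genes. It was also the 1 member with all B16 libraries below all control libraries (7% of all genes), and Abcc9, at 1.90 (SE 0.89, limma's adjusted p = 0.344), was the 1 member wholly above (10.2%). In GL261 against B16, limma called 0 of 12 members, with 1 gene, 0.01%, called among all tested. At an unadjusted p under 0.05 the count was 1 member, Kcnj8, which differed by -1.98 (SE 0.73, limma's adjusted p = 0.762), against 5.5% of all genes. Kcnj8 was also the 1 member with all GL261 libraries below all B16 libraries, a position that 6.66% of all genes held, and no member lay wholly above (7.13%). With 3 libraries a side, an exact permutation test of a single gene cannot give less than 0.1, and the difference of Kcnj8 reached that limit in both comparisons of GL261.

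Over 107 further lineage genes in the table, 47 were listed at 0 in all libraries and 21 could be tested. In tumor-associated against control MLECs, 2 of the 21 were higher (Lcp1 and Mcam) and 1 was lower (Thy1), against 2.9% and 1.02% of all genes tested. Mcam, the adhesion protein CD146, which both pericytes and endothelium carry, had 38.4, 3.73 and 0 FPKM in control, 173, 139 and 189 in GL261, and 137, 155 and 155 in B16 (difference of 4.79, SE 0.82, limma's adjusted p = 0.00548). Thy1, carried by T cells and by lymphatic endothelium, had 222, 325 and 367 in control and 7.28 to 44.1 in the tumor-associated libraries (-3.72, SE 0.54, limma's adjusted p = 0.00189), while Cd3d, Cd3g and Cd8a were listed at 0 in all 9. In GL261 against control, 2 were higher (Lcp1 and Mcam) and 2 lower (Mrc1 and Thy1), against 2.58% and 0.904% of all genes, and in B16 against control, 3 were higher (Lcp1, Mcam and S100b) and 1 lower (Thy1), against 1.61% and 0.502%. None of the 21 was called in GL261 against B16. Lcp1, Mcam and S100b passed the filter only through libraries in which they are high, so their calls are not independent evidence of direction. Whether cells of another lineage had a part in any difference described here was not tested.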

How the data were processed

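RNA-seq of 9 sorted MLEC libraries (3 Control, 3 GL261, 3 B16; Smart-seq2 with 18 amplification cycles, paired-end reads) was examined. The authors trimmed the reads, aligned them to mm9 with TopHat2 2.0.12 and computed expression with Cufflinks 2.2.1, according to the methods and the submitters' processing notes, and deposited FPKM per gene symbol and library. The gene annotation is not given in the sources used here. The table holds no read counts, so the depth behind a value is unknown and no count test was run. The labels call the libraries biological replicates, each from a pool of 6 mice.

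Values were transformed to log2(FPKM + 1), so that fold changes of low genes are understated. Genes with at least 1 FPKM in at least 3 libraries were fitted with limma 3.58.1 (R 4.3.3; lmFit and eBayes with a trend), with GL261 and B16 joined for tumor-associated against control and in a fit of 3 groups for single tumors. Benjamini-Hochberg adjustment covered all genes tested, with a threshold of 0.05. Single genes were also tested by an exact two-sided permutation test. The fit was tested on simulated data. The median difference over all genes was 0.20 on the log2 scale in tumor-associated against control and 0.05 after rescaling each library to a sum of 1000000. All 35 members are accounted for. Members at 10 FPKM or more in at least 1 library are given in every library, and the further genes of each lineage by up to 3 with the highest mean plus those called. Others were named after their values were seen, such as Higd1b, Notch3, Mylk and Tpm2. The members and the lists were chosen with earlier results of these data known. Positions in mm9 came from GENCODE M1 and promoters from RefSeq (GRCm38.p6). Alternatives covered the pseudocount, scaling, filter, prior, replicate number as a block, aligned reads as a covariate, left-out libraries and the area under the ROC curve. Same-numbered libraries of different groups did not deviate together (r from -0.0334 to 0.0443 over 9 pairs), so the numbers were not used as pairs.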

Additional observations from a re-analysis of the deposited data

Results flagged for a closer look

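The level of Kcnj8 in GL261 replicate 2, 6.56 FPKM, was far below the other 5 tumor-associated libraries, which ran from 45.8 to 116: the gap to its nearest neighbour was 0.666 of the range of the group on the log2(FPKM + 1) scale, past Dixon's critical value of 0.625. It was the only one of 14 values examined in this way that did so, and chance alone marks about 1 group in 20. The same library had the highest myeloid sum in FPKM, and the part of that in the low Kcnj8 value was not tested.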

How the results depend on the processing

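Dcn was the 1 member called in tumor-associated, GL261 and B16 against control, and limma called 0 members in GL261 against B16 under every alternative run. With the replicate number as a block the count of members called stayed at 1 in all 3 comparisons with control, and it stayed at 0 in GL261 against B16. Of all genes tested, that fit called 3.04%, 2.31% and 1.47% in the comparisons with control and 0.01% in GL261 against B16. The count was 0 in all 3 comparisons with a mean of at least 10 FPKM as the filter, which removes Dcn from the test, and with aligned reads as a covariate (Dcn at -4.94, -5.31 and -5.03, with limma's adjusted p of 0.127, 0.494 and 0.179). With that filter 7.49%, 6.6% and 4.4% of all genes tested were called. With the covariate the shares were 0.0904%, 0.0201% and 0.0502%, so few calls of any gene remained. Leaving out 1 library gave 0 to 2 members in tumor-associated against control and 0 to 1 in each single tumor against control. Each 0 came from leaving out a control library, after which Dcn no longer reaches 1 FPKM in 3 libraries. Over all genes tested, the share called was then 2.57% to 4.59% for the joined tumors, 1.1% to 3.76% for GL261 and 0.717% to 2.83% for B16 across the libraries left out. An alternative chosen after seeing the data kept the 9955 genes that passed the filter on all 9 libraries. In tumor-associated against control, the count was then 1 with each control library left out in turn and 2 (Dcn and Fcer1g) without B16 replicate 2. Of all genes tested, 2.66%, 4.51% and 3.23% were called without control replicates 1, 2 and 3, and 2.97% without B16 replicate 2. Without both control replicate 1 and GL261 replicate 2, also chosen after seeing the data, the count of members was 0 in GL261 against control, where 0.643% of all genes tested were called. The count was 1 in tumor-associated against control and 1 in B16 against control, where 1.72% and 1.03% of all genes tested were called. An ROC power above 0.4 picked 5 members (Abcc9, Aif1, Dcn, Fcer1g and Kcnj8), and 39.8% of 13553 genes. Directions that reversed, none of them past the threshold, were those of Cd68 (0.74 with a pseudocount of 0.1, -1.65 to 1.08 over the libraries left out in turn, with 1.08, 0.40, 0.47 and 0.083 without control replicate 1, control replicate 2, GL261 replicate 3 and B16 replicate 3, and 0.82 without both libraries), Lyz2 (-2.97 to 0.62 over the libraries left out, with 0.62 and 0.0003249 without control replicates 2 and 3), Tyrobp (-0.43 to 2.66 over the libraries left out, with -0.43 without control replicate 1 or 2, and -0.99 without both libraries), C1qc (-0.45 without both libraries), Tagln (0.48 without control replicate 1, 0.24 without both libraries) and Kcnj8 (0.84 with aligned reads as a covariate). The cause was not tested.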

Other observations

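Outside the marker lists, single libraries held other genes at 50 FPKM or more that stayed under 10 in the other 8, a rule set after the values were seen. GL261 replicate 2 had Ccl5, a chemokine of T cells and activated myeloid cells, at 86.9 FPKM, and it was listed at 0 in the other 8 libraries. B16 replicate 1 had the neutrophil chemokine Cxcl2 at 67.8 (at most 9.45 elsewhere), and B16 replicate 3 had Spp1, which encodes osteopontin, at 61.7 (at most 8.83 elsewhere). Control replicate 3 had the long noncoding RNA Hotairm1 at 160 and GL261 replicate 1 the small nucleolar RNA Snora81 at 1530, each listed at 0 in the other 8. B16 replicate 2 had no such gene.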
